A study of Mus musculus with 4 samples.

Results

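Qki, Grsf1 and Zfp106 encode proteins that bind RNA, and the transcripts of all 3 genes were among the RNAs recovered from mouse heart with an antibody against N4-acetylcytidine (ac4C), an acetylated form of cytidine. They were taken by gene name, and lines of the deposited table with the same chromosome, listed gene, start and counts were joined into 1 region. This gave 8 regions of 558: 2 of Qki, 2 of Grsf1 and 4 of Zfp106. None of the 8 differed between NAT10 knockout and control hearts after adjustment over the whole table. The data therefore give levels, the spread between libraries and bounds on the change, and a description of how the counts of each gene were divided among its regions.

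The libraries came from hearts of C57BL/6 mice, 2 labelled NAT10 knockout and 2 labelled control. NAT10 is the acetyltransferase that makes ac4C. Both groups carried the treatment label HFD+STZ+Exercise, in a series titled for diabetic cardiomyopathy, so no animals without that treatment or without exercise were compared. The sources used here do not say how the knockout was made, in which cells or at what age, and the labels do not say that each library is a separate animal, so p-values reflect the spread of these libraries alone and part of it may be technical. The targeted gene itself was not analysed here and could not check the labels.

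Quaking, the product of Qki, is a STAR-family protein that binds sequences of the ACUAA type and controls splicing, stability and translation. It has nuclear and cytoplasmic isoforms, is best known for its role in myelinating cells, and in heart muscle regulates the splicing of sarcomere and calcium-handling transcripts. GRSF1 binds G-rich RNA through RRM domains and works in the mitochondrial RNA granule, where mitochondrial transcripts are processed and prepared for decay or translation. Zfp106 encodes a zinc finger protein that binds GGGGCC-type repeats and associates with splicing factors, and mice without it develop neuromuscular degeneration. How these proteins relate to ac4C is not addressed by these files.

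In human cells, RNA captured with ac4C antibodies was reported to be rich in a pattern of a cytosine followed by any 2 bases, repeated (CNNCNN and so on). The longest such run on the sense strand was therefore located in the coding sequence of Qki and of Zfp106, in the transcript with the longest coding sequence in GENCODE M21 (build GRCm38, where Qki is named Qk). The runs are given as a description, and that of Grsf1 is not reported here. The coding sequence is 5664 bases long in Zfp106 and 1023 in Qki, and a longer one offers more places for a run. Capitals mark the cytosine of each repeat, and no region of the table could be placed on them.
Qki, minus strand of chromosome 17, coding bases 111 to 125: CttCaaCcaCctCga
Zfp106, minus strand of chromosome 2, coding bases 4800 to 4820: CcaCacCatCcgCtgCtaCaa

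The Zfp106 run of 7 repeats was matched or exceeded in 43.3% of the 314 protein-coding genes of the table with a value, and the Qki run of 5 repeats in 83.4%. Grsf1 held 25.1 CCG triplets per kb of coding sequence in the same annotation, against 6.84 in Qki and 5.12 in Zfp106, and a median of 10.1 over the genes in the table. Its cytosine content, 25.6%, was near that of Qki (24.4%) and Zfp106 (23.7%). The median over the genes in the table was 26.2%. The Qki and Zfp106 transcripts are long, at 8547 and 9085 bases, against 2538 bases for Grsf1 and a median of 2922 bases. A match is a property of the sequence and does not mark an acetylated base.

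As the table gives positions, Qki lies on chromosome 17 from 10421530 to 10538309, Grsf1 on chromosome 5 from 88807307 to 88824030 and Zfp106 on chromosome 2 from 120337301 to 120394288, all on the minus strand. The sources used here name no build for these positions beyond mm10 in the processing notes, and they are not those of GRCm38 (mm10): of 379 listed genes found in that annotation, 9 had the same start. Positions of the regions within the genes were not used here, so exon, intron or UTR cannot be given. Of the 4 Zfp106 regions, 2 (regions 1 and 2) were listed with Zfp106 and 2 (regions 3 and 4) with Capn3, the gene of the muscle protease calpain 3. Capn3 lies on the plus strand from 120294053 to 120335399, so that the 3′ ends of both genes face each other across 1901 bases. All 8 regions overlap a single gene in the table. No source used here tells whether reads were counted by strand, so the reads of regions 3 and 4 cannot be assigned to Zfp106 with certainty. A listed gene other than the overlapped one was common: it occurred in 185 of the 493 regions that overlap a gene.

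Counts summed to 920818 and 693922 in the knockout libraries and to 674687 and 686323 in the control libraries. They are sums over the regions of the table and not library depths. The heart label was checked against 12 fixed heart muscle markers. Of these, 7 were overlapped by a region of the table, among them Myh6 and Ttn. Their summed levels were 86757 and 94918 TMM-scaled CPM (counts scaled to a common library total) in knockout and 85812 and 85804 CPM in control. By edgeR on counts summed per gene, 3 of the 7 rose and 4 did not pass, where 4.9% of 388 genes or merged genes passed in either direction. Regions that overlap no gene were left out of these sums. Those listed with Tnnt2, also among the 12, stood at log2 fold changes of 0.20, -0.11 and -0.32. A further region listed with Myl3 stood at 0.21. None of these passed by edgeR. The part of the heart muscle markers in the values below was not tested. Of the smooth muscle and pericyte, immune, blood and skeletal muscle markers, 2, 1, 1 and 1 were present and 0 passed. Their log2 fold changes were 1.71 for Abcc9 (edgeR adjusted p = 0.052), 0.16 for Rgs5, 0.65 for Cd74, -0.01 for Hba-a2 and -0.12 for Ckm. Not passing does not show that they were level. None of the fixed fibroblast, endothelial or Schwann cell and oligodendrocyte markers was in the table. Their absence says nothing of their expression, since the table lists few genes. In whole hearts, fewer cells of a type and less RNA per cell cannot be told apart, and without libraries from uncaptured RNA a change in abundance and a change in acetylation cannot be told apart either.

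Levels are given as CPM over the counts of the table, scaled by TMM factors, which adjust for differences in composition between libraries. Region lengths were not used here, so levels are compared within a region and not between genes. Qki region 1 was the most counted of the 8. It held 209 and 86 counts in knockout and 149 and 132 in control, which is 192 and 135 CPM in knockout libraries against 241 and 192 CPM in control libraries. Both knockout values were below both control values, but knockout replicate 1 and control replicate 2 differed by less than 1 CPM. The means were 163 ± 40.1 CPM in knockout and 216 ± 34.3 CPM in control (SD, n = 2 each), and the log2 fold change was -0.38 ± 0.20 (SE; edgeR quasi-likelihood, adjusted p = 0.308).

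Qki region 2 held 48 and 22 counts in knockout and 12 and 20 in control, or 44.0 and 34.5 CPM in knockout against 19.4 and 29.1 CPM in control. Here both knockout libraries were above both controls, on few counts. The fitted change was 0.70 ± 0.58 (SE; edgeR adjusted p = 0.56). The 95% interval ran from 0.72-fold to 3.68-fold. For region 1 the interval was narrower, from 0.58-fold to 1.02-fold.

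Grsf1 region 1 had the largest fitted change of the 8. It held 38 and 11 counts in knockout and 34 and 34 in control, or 34.8 and 17.2 CPM in knockout against 54.9 and 49.5 CPM in control. Both knockout libraries lay below both controls, and the knockout libraries differed between themselves by more than the controls did. The means were 26.0 ± 12.4 CPM in knockout and 52.2 ± 3.83 CPM in control (SD, n = 2 each), with a log2 fold change of -0.94 ± 0.51 (SE; edgeR adjusted p = 0.334). The interval reached from 0.25-fold to 1.07-fold. Without knockout replicate 1 the fitted value was -1.59, and without knockout replicate 2 it was -0.58.

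Grsf1 region 2 held 56 and 18 counts in knockout and 12 and 28 in control, or 51.3 and 28.2 CPM in knockout against 19.4 and 40.8 CPM in control. The groups overlapped, with the lowest value in control replicate 1 and the highest in knockout replicate 1. The fitted value was 0.43 ± 0.55 (SE; edgeR adjusted p = 0.697), and it became -0.11 without knockout replicate 1.

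The Zfp106 regions had the smallest fitted changes. Region 1 stood at 53.2 and 58.0 CPM in knockout and at 54.9 and 67.0 CPM in control. Region 2 stood at 60.5 and 34.5 CPM in knockout and at 51.7 and 52.4 CPM in control. In both regions the groups overlapped, and the fitted changes were -0.14 ± 0.35 and -0.10 ± 0.41 (SE; edgeR adjusted p = 0.846 and 0.927). Of the 2 regions listed with Capn3, region 3 stood at 73.3 and 51.7 CPM in knockout and at 93.7 and 52.4 CPM in control. Region 4 stood at 59.6 and 48.6 CPM in knockout and at 32.3 and 69.9 CPM in control. Both regions spread most between the controls: control replicate 1 was the higher control in region 3 and the lower one in region 4. The fitted changes were -0.19 ± 0.33 and 0.08 ± 0.40 (SE; edgeR adjusted p = 0.772 and 0.941). Over the 4 regions the intervals spanned 0.52-fold to 1.88-fold.

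**Figure D1:**
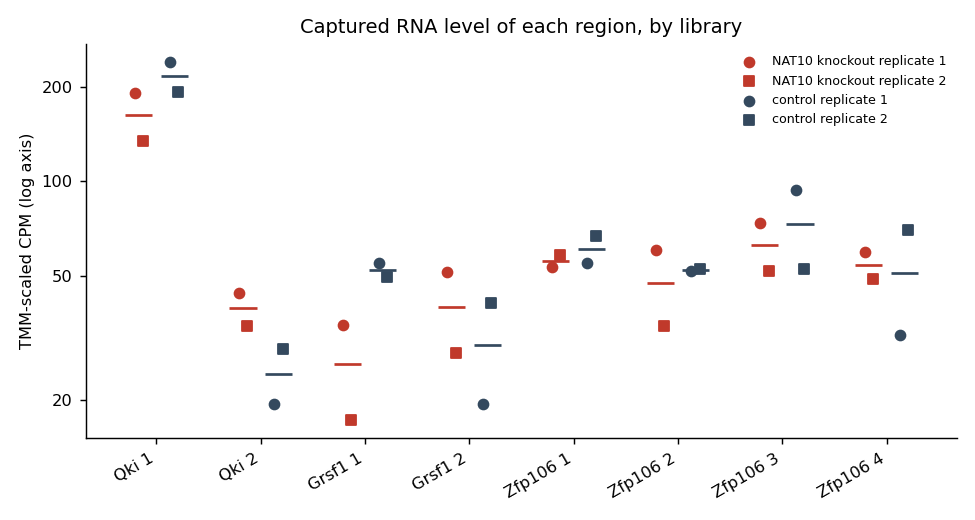
Level of each region of Qki, Grsf1 and Zfp106 in each library, in TMM-scaled CPM on a log axis. Points are libraries (red, NAT10 knockout; dark blue, control; circles, replicate 1; squares, replicate 2) and bars are means of 2 libraries. The groups are separate in Qki regions 1 and 2 and in Grsf1 region 1, and overlap in the other 5.

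Of the 8 regions, 0 passed the edgeR test after adjustment, where 3.94% of all 558 regions did. At an unadjusted p below 0.05 the count was also 0, where the background was 19.0%. DESeq2's Wald test, an alternative, gave no adjusted p for 7 of the 8, so they could not pass there. Its adjusted p was 0.658 for Qki region 1, and 0 of the 8 had an unadjusted p below 0.05. It called 7 of the 342 regions to which it gave an adjusted p. The groups did not overlap in 3 of the 8, against 47.5% of all regions. The fitted value was above 0 in 3 and below 0 in 5, beside a median of 0.01 over all regions. Depth limits this reading. The least counted region that passed anywhere in the table averaged 98.8 counts per library, and 7 of the 8 regions averaged fewer, as did 270 of the 558. Qki region 1, with 144 on average, was the exception.

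**Figure D2:**
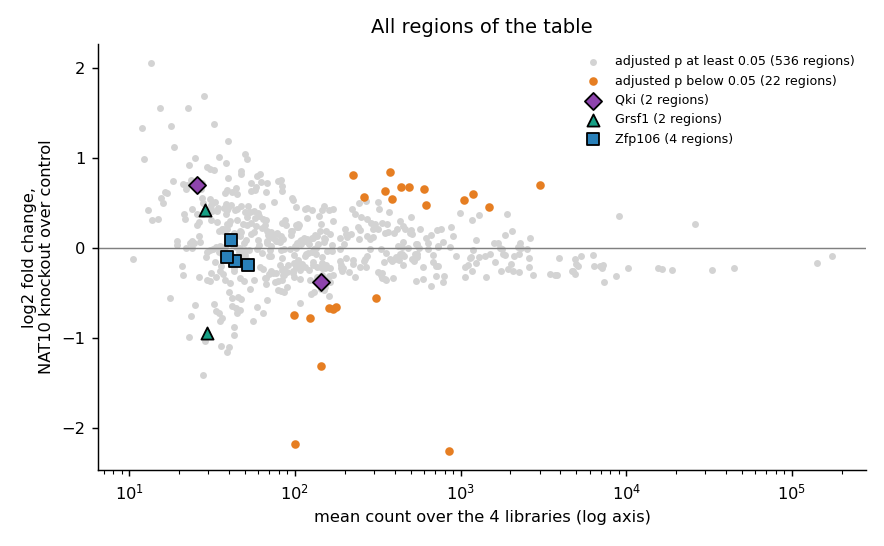
Mean count over the 4 libraries (log axis) against the log2 fold change of knockout over control for all 558 regions, with the 22 that passed in orange and the regions of Qki, Grsf1 and Zfp106 as large symbols. The called regions start at 98.8 mean counts, and all but Qki region 1 of the 8 lie to the left of that.

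**Figure D3:**
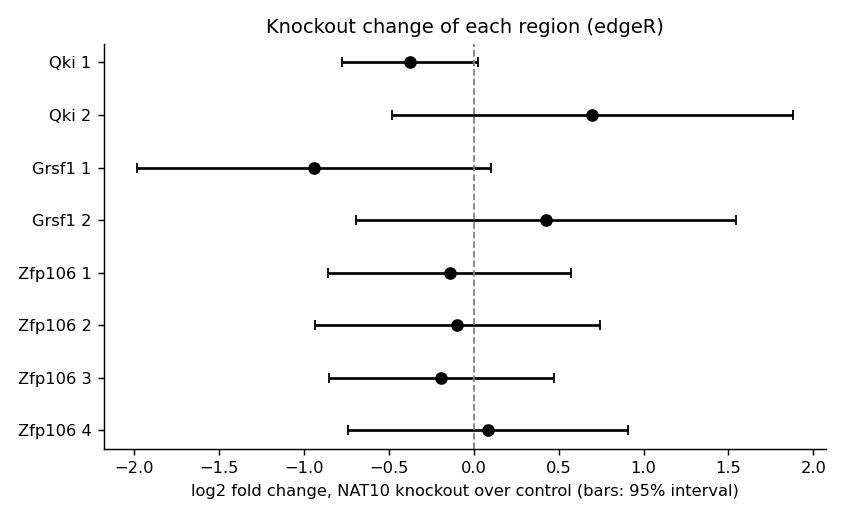
Log2 fold change of knockout over control for each region (points, edgeR) with its 95% interval (bars). All 8 intervals include 0, and the widest belong to the regions with the fewest counts.

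Summed over their regions, the genes moved less than some of their parts. Qki summed to 257 and 108 counts in knockout and 161 and 152 in control, with a log2 fold change of -0.20 ± 0.17 (SE; edgeR adjusted p = 0.564). Grsf1 summed to 94 and 29 counts in knockout and 46 and 62 in control, at -0.26 ± 0.30 (adjusted p = 0.656). Zfp106 summed to 269 and 123 counts in knockout and 144 and 166 in control, at -0.07 ± 0.17 (adjusted p = 0.847), and at -0.09 with the 2 regions listed with Zfp106 alone, a setting chosen after seeing the data. None of the 3 sums passed, where 4.9% of 388 genes or merged genes did. In all 3 the groups overlapped after scaling.

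The regions of 1 gene share their libraries, so their ratio within a library does not depend on scaling between libraries. In Grsf1, region 2 over region 1 was 1.47 and 1.64 in the knockout libraries, against 0.353 and 0.824 in the control libraries. Region 2 was thus the larger part of the Grsf1 counts in both knockout libraries (59.6% and 62.1%) and the smaller part in both controls (26.1% and 45.2%). The counts behind these shares are low: the Wilson interval of the knockout replicate 2 share ran from 44.0% to 77.3%, and that of control replicate 2 from 33.4% to 57.5%. On the log2 scale the ratio averaged 0.63 ± 0.11 in knockout and -0.89 ± 0.86 in control (SD, n = 2 each), a difference of 1.53.

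Qki had a like shift. Region 2 over region 1 was 0.230 and 0.256 in knockout and 0.0805 and 0.152 in control. Region 2 held 18.7% and 20.4% of the Qki counts in knockout, against 7.45% and 13.2% in control. The log2 ratio averaged -2.04 ± 0.11 in knockout and -3.18 ± 0.64 in control (SD, n = 2 each), a difference of 1.13. In both genes control replicate 1 lay farthest out. Without it, the difference was 0.92 in Grsf1 and 0.68 in Qki.

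In Zfp106, none of the 6 region pairs separated the groups. Each region held between 13.9% and 40.3% of the Zfp106 counts of a library, and both extremes were in control replicate 1, in regions 4 and 3. Of the regions listed with Capn3, the log2 ratio to region 1 differed between knockout and control by 0.31 for region 4 and by -0.06 for region 3 (exact two-sided permutation p = 0.667 and 1).

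The exact two-sided permutation test over libraries cannot go below p = 0.333 with 2 against 2 libraries, and this was its value for the Grsf1 and the Qki ratio. Of the 8 ratios 2 separated the groups, against 48.6% of 259 such ratios over all genes with at least 2 regions. A separated ratio was thus common in this table. These are shares of pairs and not of genes: a gene with many regions, such as Myh6 with 15, adds many pairs. Zfp106, with 4 regions, gave most of the 8. In edgeR's test for unequal change among regions, the gene-wise F form gave an unadjusted p of 0.0491 for Grsf1, 0.0504 for Qki and 0.958 for Zfp106. Of the 49 genes tested, 8.16% had an unadjusted p below 0.05. After adjustment the p was 0.414 for Grsf1 and Qki, and 0 of 49 genes (0%) passed in this form or in the Simes form. The Simes form had unadjusted p of 0.167 for Grsf1 and 0.126 for Qki. A different use of the regions of Grsf1 or Qki in knockout was thus not detected in these 4 libraries. How far depth, spread between libraries or their small number limited the test was not tested. Low counts in the table are mostly even numbers, among these 25 of 32, so the intervals, which cover counting error only, can be too narrow.

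**Figure D4:**
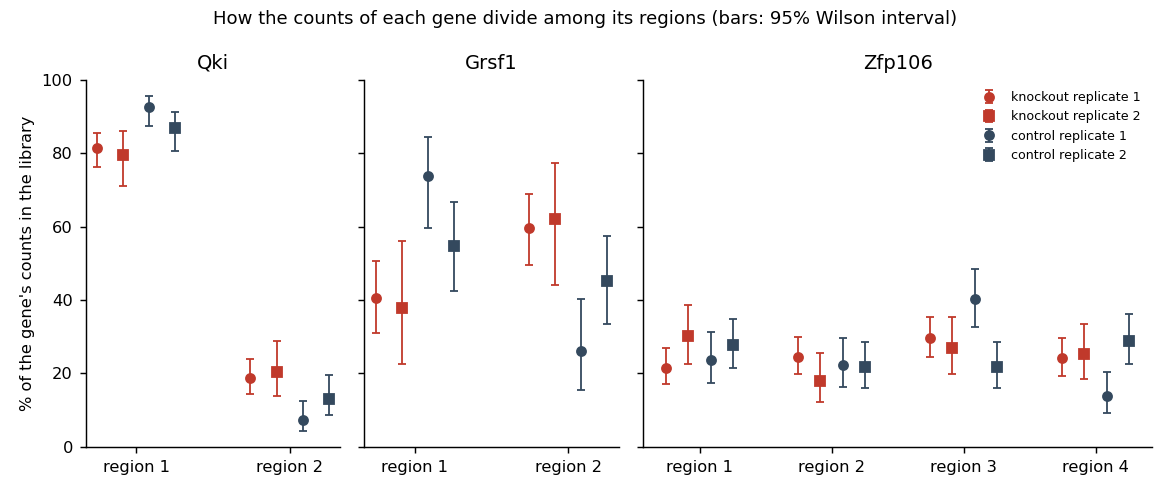
Percent of each gene's counts that fell in each of its regions, per library (points) with 95% Wilson intervals (bars), knockout in red and control in dark blue. In Grsf1 and Qki, region 2 holds a larger share in both knockout libraries than in both controls, while the Zfp106 shares are mixed.

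The authors' deposited table also gives a log2 fold change and a p-value per region, and its header does not name the direction. Of the 50 regions with the largest edgeR changes, 92% had the sign of control over knockout there, so the sign was read that way and is turned here to knockout over control. Qki region 1, deposited as 0.15 in the authors' deposited table, had unscaled mean counts slightly higher in knockout (log2 ratio 0.07). That ratio makes no allowance for the larger total of knockout replicate 1. Scaled by totals alone, the edgeR value of Qki region 1 was -0.22. The 95% interval of the main fit ran from 0.58-fold to 1.02-fold, so that its direction is uncertain. In the authors' deposited table, 2 of the 8 regions had a p below 0.05, against 27.2% of all regions, and each had a q of 1. The first was Zfp106 region 1, at 2.06 (p = 0.00243 in the authors' deposited table), and the second was Grsf1 region 1, at -2.19 (p = 0.0202 in the authors' deposited table). For Zfp106 region 1 the counts themselves gave little difference. Their unscaled means had a log2 ratio of 0.25, and the edgeR value was -0.14. The authors' deposited table put 6 of the 8 regions higher in knockout, as it did for 76.9% of all regions, while the edgeR fit put 3 above 0. With the sign read so, the direction was the same in both for 5 regions and opposite for 3, which were Zfp106 regions 1, 2 and 3. Qki region 2 had the largest of the authors' values, 2.97 in the authors' deposited table, beside 1.13 for the unscaled means. Both comparisons rest on the same 4 libraries, and the sources used here do not tell how the authors computed theirs.

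**Figure D5:**
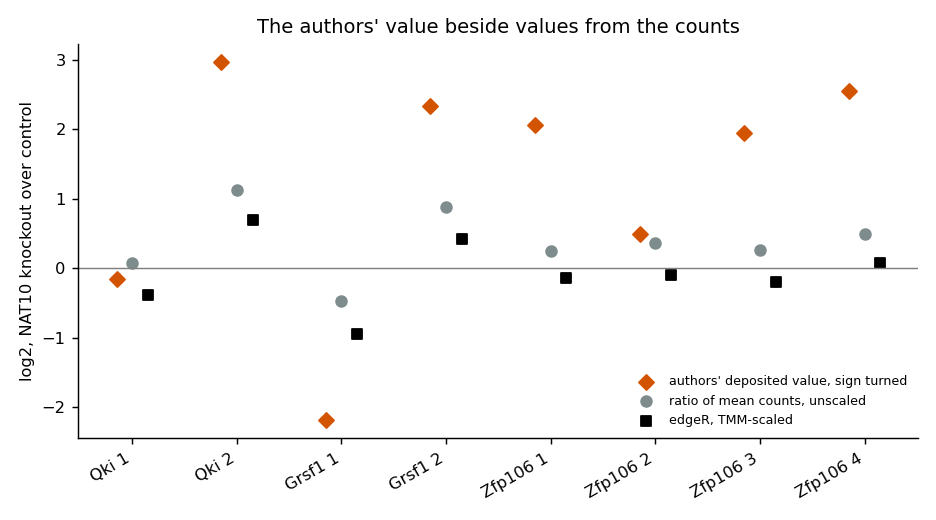
Log2 of knockout over control for each region from 3 sources: the authors' deposited value with its sign turned (orange), the ratio of the unscaled mean counts (grey) and the edgeR fit with TMM scaling (black). The authors' values reach from -2.19 to 2.97, and the edgeR values from -0.94 to 0.70.

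Other RNA-binding protein genes were looked up from fixed lists, and few of the listed genes were in the table. The lists do not hold every such gene. Hnrnpul2 (log2 fold change -0.98) and Msi2 (0.42), for example, had a region in the table and were on none of them. Neither region passed by edgeR. Of a list of 88 splicing and RNA processing genes, 2 were present, with 0 higher and 0 lower. Over all gene sums, 4.9% of 388 genes or merged genes passed in either direction. Luc7l2, a splicing factor gene, held 62 and 34 counts in knockout and 55 and 72 in control (log2 fold change -0.78 ± 0.31, SE; edgeR adjusted p = 0.105). Rbm38, which regulates splicing and mRNA stability, shares its region with Gm14453 and stood at 0.40 ± 0.54 (adjusted p = 0.709). Of 63 genes of translation, decay and RNA transport, 3 were present and 0 passed in either direction, beside the same 4.9%. The 3 had a median of 0.08 beside 0.05 over all genes tested. These were the initiation factor genes Eif4g2 (0.08 ± 0.13) and Eif4a1 (-0.10 ± 0.15, in a region shared with Gm25835) and Ybx1, a cold shock domain protein gene (0.14 ± 0.16). Of 43 genes related to GRSF1 or active in the mitochondrial RNA granule, none was in the table.

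Transcripts whose splicing quaking is known to control, or that belong to the same muscle machinery, formed a list of 16, of which 8 were present. By edgeR, 1 rose, 0 fell and 7 did not pass, where 4.9% of all gene sums passed in either direction, with a median of 0.06 beside 0.05 over all genes tested. The one that rose was the tropomyosin gene Tpm1, whose sum is 1 region. It held 1018 and 600 counts in knockout and 364 and 414 in control (log2 fold change 0.68 ± 0.13, SE, edgeR adjusted p = 1.81e-05). A region listed with Tpm1 that overlaps no gene was not in this sum. That region held 2200 and 1452 counts in knockout and 1294 and 1402 in control (0.05 ± 0.13, SE, edgeR adjusted p = 0.838). Other genes of the list were Ttn, titin (0.01 ± 0.16), Ryr2, the calcium release channel (0.09 ± 0.14), and the sarcomere genes Myom1 (0.02 ± 0.19) and Ldb3 (0.22 ± 0.23). Splice forms were not measured here.

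Likeness in pattern was taken as the distance between log2 levels over the 4 libraries, each centred on its own mean. The 3 regions nearest to the summed Qki profile were those of Tm9sf3, Gm5131 and Eif4g2 (1 of its 4 regions), at distances of 0.0708 to 0.0847, where the median region lay at 0.596. For Grsf1 they were Tmem65, Epas1 and Usp13, at 0.0661 to 0.227 with a median of 0.815. For Zfp106 they were Coq10a, Gm16418 and a region over Ttn and Gm13938, at 0.0293 to 0.0644 with a median of 0.493. None of the 9 passed, with edgeR adjusted p from 0.575 to 0.887. This follows largely from their choice, since the sums they lie near did not pass. With 4 libraries such nearness is a description of these samples.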

How the data were processed

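RNA captured with an ac4C antibody was sequenced in 2 libraries labelled NAT10 knockout and 2 labelled control, from heart. The authors deposited whole-number counts per region, per the file headers, with their own log2 fold change, p-value and q-value of the comparison, deposited in the same table. FastQC, Salmon and mm10 are named in the submitters' processing notes, without roles or versions. No source used here names the region caller or the counter. The 652 lines hold 558 distinct regions, and 94 repeats were removed.

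The test was that of edgeR 4.0.16 under R 4.3.3 (low-count filter filterByExpr, which removed 0 regions; TMM; robust quasi-likelihood test; Benjamini-Hochberg adjusted p below 0.05 over all 558 regions). CPM used TMM-scaled totals of the table. TMM factors were 1.18 and 0.919 in knockout and 0.918 and 1.00 in control. Gene sums merged genes that share all regions. Unequal change was tested with diffSpliceDGE over 49 genes with at least 2 regions that overlap no other gene. DESeq2 1.42.0 was an alternative. The steps were tested on simulated data. Replicates differed by more than sampling noise (chi-square per degree of freedom 16.3 in knockout and 4.51 in control) and were kept apart. Intervals from counts cover counting error only.

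Named regions are all those of the 3 genes. From each list of RNA-binding protein genes up to 6 by level and all past the test were named. The members and lists were chosen with earlier results of these data known. Items withheld from the named results are not reported here.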

Additional observations from a re-analysis of the deposited data

How the results depend on the processing

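Of the 8 regions, 0 passed in any alternative that gave them an adjusted p, and the lowest was 0.146. The DESeq2 Wald test gave 7 of the 8 none. Grsf1 region 1 (-1.59 to -0.58), Qki region 1 (-0.68 to -0.17) and Qki region 2 (0.44 to 1.02) kept their sign throughout. Signs near 0 did not hold. Without 1 library, Grsf1 region 2 ranged from -0.11 to 1.06, Zfp106 region 1 from -0.27 to 0.00367, region 2 from -0.59 to 0.22, region 3 from -0.56 to 0.28 and region 4 from -0.35 to 0.74. The sums ranged from -0.81 to 0.0592 for Grsf1 and from -0.25 to 0.0512 for Zfp106. With totals alone, Zfp106 region 2 stood at 0.0658 and the Zfp106 sum at 0.0315. The causes were not tested. Regions under 50 mean counts have no value with that filter.

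Of all regions, 22 passed in the main setting, 8 with totals alone, 7 with the DESeq2 Wald test, and 13 to 37 without 1 library. With the replicate number as a block, 1 passed and 0 genes had unequal regions. Nothing says that the numbers pair the libraries, and replicate differences correlated at -0.16 across regions. With the numbers crossed, chosen after seeing the data, 42 regions and 1 gene with unequal regions passed, and that gene was not Qki, Grsf1 or Zfp106 (Simes adjusted p = 0.994 each).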
